A study of Mus musculus with 12 samples.

Results

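Smooth muscle contractile genes encode the actin filaments, the myosin and the actin-binding proteins with which smooth muscle cells generate tension. The 10 genes described here are Acta2, Actg2, Tagln, Cnn1, Myh11, Myl9, Cald1, Tpm2, Smtn and Lmod1. They were found on the array by matching each probe's accession to the gene, which gave 13 probes for the 10 genes among 26581 probes with a gene symbol. After a filter on dim probes, 15226 genes were tested, and all 10 members were among them. For Actg2 and Lmod1 this rested on the 8 culture arrays alone, since neither was well above background on any of the 4 glomerular arrays. The other 8 members were well above background on 12 of 12 arrays.

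The study asked what the forkhead transcription factors Foxc1 and Foxc2 do in the podocytes of the adult mouse kidney. It measured total RNA on 12 one-colour Agilent arrays, with 2 arrays in each of 6 groups. Every animal or culture carried an inducible Cre, named CreERT2 in the design text, with floxed Foxc1 and Foxc2 alleles, so the untreated groups share the Cre and the floxed alleles. The genotype labels count the second floxed gene upwards along the samples, so the alleles were taken as those of Foxc1 and Foxc2, the genes in the title of the series. The promoter that drives Cre is not given in the sources used here. Control glomeruli came from 2 mice given no agent, and treated glomeruli from 2 mice that were injected intraperitoneally with tamoxifen on 3 days in a row when 8 weeks old. Glomeruli of the treated mice were taken on day 7. The labels record no age, no day of isolation and no vehicle for the control mice. The 8 cultures were podocytes grown out of isolated glomeruli of adult mice and were mock-treated or treated with tamoxifen, in its active form, for 4 or 7 days. Whether the cultures of 1 group were started from separate animals is not stated, so the spread between them may be technical. The untreated groups were given no tamoxifen, so an effect of losing Foxc1 and Foxc2 cannot be told apart from an effect of tamoxifen or of active Cre.

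In smooth muscle, myosin made of the heavy chain Myh11 and light chains such as Myl9 pulls on filaments of the actins Acta2 and Actg2 once the light chain is phosphorylated. Tropomyosin (Tpm2), caldesmon (Cald1) and calponin (Cnn1) lie along the filament and tune its access to myosin, whereas transgelin (Tagln), smoothelin (Smtn) and leiomodin (Lmod1) bind actin and help bundle, anchor or assemble it. Many of these genes are driven by serum response factor with its partners myocardin and the myocardin-related factors, through a DNA element called the CArG box. In the glomerulus, many contractile genes are typical of the mesangial cells and the vessel wall, without being confined to them. Acta2 and Tagln are also widely used as signs of activated fibroblasts and of cells adapting to culture. Which cells carried the signal was not measured here.

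The promoters of 3 members are shown because they cover the range of CArG elements found among the genes described below. Each is the strand of the gene, 5′ to 3′, with the 250 bases before the transcription start annotated by RefSeq on GRCm38.p6, and the capitals mark CArG boxes and CArG-like boxes. A CArG box is a pair of C, 6 bases that are A or T, and a pair of G, and a CArG-like box may have 1 of those 6 inner bases as C or G. Acta2 lies on the minus strand at chr19:34255374-34255623, Cnn1 on the plus strand at chr9:22099003-22099252 and Myl9 on the plus strand at chr2:156775214-156775463.
Acta2: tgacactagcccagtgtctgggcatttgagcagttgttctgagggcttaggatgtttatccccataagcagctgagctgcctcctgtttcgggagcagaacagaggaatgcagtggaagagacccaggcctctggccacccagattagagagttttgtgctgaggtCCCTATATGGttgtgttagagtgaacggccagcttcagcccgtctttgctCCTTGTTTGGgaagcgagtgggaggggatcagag
Cnn1: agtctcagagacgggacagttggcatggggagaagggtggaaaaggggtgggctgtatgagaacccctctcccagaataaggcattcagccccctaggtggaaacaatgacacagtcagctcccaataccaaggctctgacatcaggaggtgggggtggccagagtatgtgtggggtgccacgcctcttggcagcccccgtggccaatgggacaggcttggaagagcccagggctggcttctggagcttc
Myl9: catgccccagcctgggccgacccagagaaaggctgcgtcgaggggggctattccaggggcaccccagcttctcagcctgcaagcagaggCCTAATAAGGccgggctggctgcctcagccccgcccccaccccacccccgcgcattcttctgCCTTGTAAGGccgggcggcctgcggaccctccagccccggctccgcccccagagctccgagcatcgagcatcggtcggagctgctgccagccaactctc

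Of the 10 members, 7 had a promoter in the RefSeq table used here, with 8 windows in all, since Cald1 has 2. Myl9 held the CArG box CCTAATAAGG from -161 to -152, counted from the start, and a CArG-like box CCTTGTAAGG from -99 to -90. Acta2 held the CArG-like boxes CCCTATATGG from -84 to -75 and CCTTGTTTGG from -34 to -25. No CArG-type box was found in the windows of Cnn1, Cald1, Tpm2, Smtn or Lmod1. Over all 32851 promoter windows of the same length in the table, 1.47% held a CArG box and 8.59% a CArG-type box of either form. The letters TAAACA, the core bound by many forkhead factors, were searched on both strands and occurred in the windows of Acta2, where they read TGTTTA on the gene's strand from -198 to -193, and Cald1. They occurred in 3952 of all 32851 windows. These matches are descriptions of sequence, and binding was not measured.

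Levels are given as the log2 of a gene's signal over the 75th percentile of its own array, so that 0 is the level of that percentile. Levels of different genes come from different probes and are not set against each other. The 75th percentile of signal lay between 505.2 and 759.9 intensity units, the median background between 24.5 and 34, and 57.9% to 63.4% of the spots were well above background on each array. All 4 glomerular arrays shared a slide, as did all 4 day-4 arrays and all 4 day-7 arrays, so each tamoxifen comparison lay within 1 slide, whereas slide and group cannot be told apart between glomeruli and cultures or between the culture times. Differences were tested with limma on 1 fit of all 6 groups, and a gene was called where its p, adjusted with Benjamini-Hochberg over all 15226 genes, was under 0.05. An exact permutation test of 2 arrays against 2 cannot go below a two-sided p of 0.333.

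Both targeted genes were lower on every treated array than on every untreated array of the same comparison, and Foxc2 alone passed the test. Foxc2 fell by 2.82 on the log2 scale in glomeruli (limma adjusted p = 0.037). It was not well above background on any treated culture array, where its level was lower by at least 139-fold at day 4 (limma adjusted p = 0.0019) and by at least 151-fold at day 7 (adjusted p = 0.00071). For Foxc1 the differences of -1.86, -7.41 and -9.21 did not pass the test (limma adjusted p = 0.63, 0.14 and 0.057). Its SE from the fit of all 6 groups was 1.69 in each comparison. In glomeruli its levels were 2.92 and 2.80 in the controls and 0.92 and 1.09 in the treated mice. On 1 treated culture array at each time Foxc1 was not well above background (-5.78 at day 4, -8.2 at day 7). Its culture differences are therefore not fully measured.

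**Figure D1:**
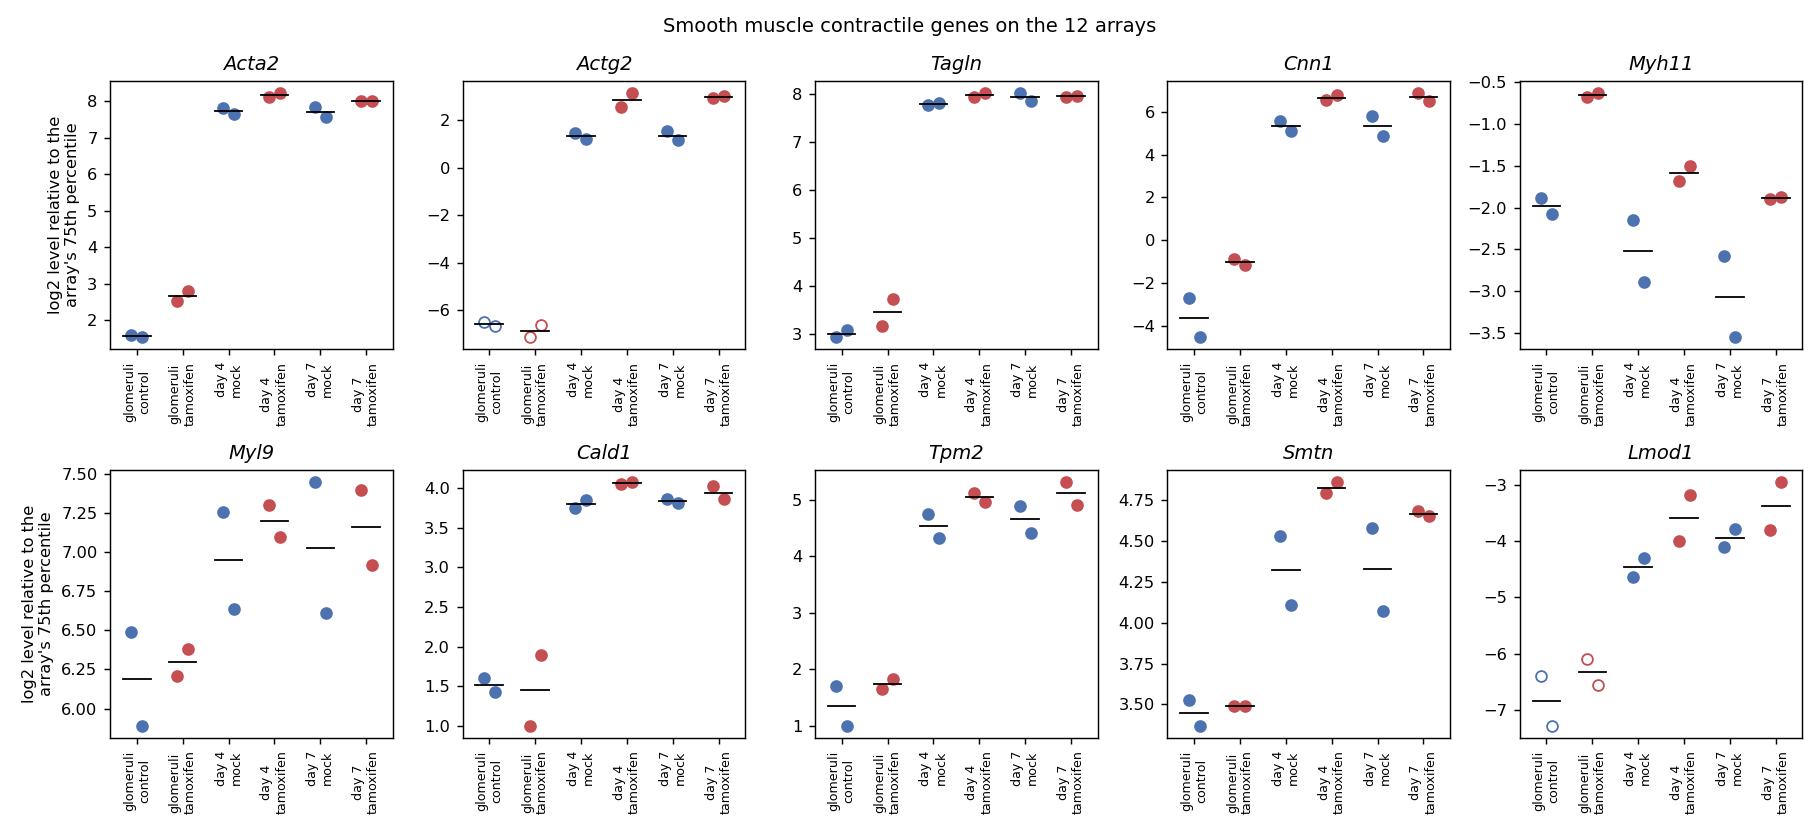
Log2 level of each contractile gene, relative to the array's 75th percentile, on the 12 arrays. Each panel is 1 gene, the points are single arrays in the 6 groups, and black bars are group means, and open points were not well above background. Acta2 lay at 1.54 to 2.80 in glomeruli and at 7.58 to 8.22 in culture, whereas Myh11 lay between -3.55 and -0.63 throughout.

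In glomeruli, 1 of the 10 contractile genes, Acta2, rose with tamoxifen, and no member was called lower. Of all genes tested, 2.60% were called in this comparison and 1.75% were called higher. Cnn1 and Myh11 had larger differences than Acta2 and lay higher in both treated mice, without passing the test. In 4 of 10 members, Acta2, Tagln, Cnn1 and Myh11, both treated arrays lay above both controls, against 20.0% of all genes. The difference was above 0 for 8 of 10 members, against 43.0% of all genes, and the members' median difference was 0.42, against -0.05 over all genes. That count and median take in Actg2, below 0, and Lmod1, above 0. Neither was well above background on any glomerular array, so their signs are not measured responses. Without the second control mouse 6 of 10 differences were above 0 and their median was 0.05, and without the second treated mouse the median was 0.24.

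Acta2, the smooth muscle alpha actin, had log2 levels of 1.59 and 1.54 in the control glomeruli and of 2.54 and 2.80 in the treated glomeruli. Both treated mice stood apart from both controls, which nearly coincided. Acta2 rose by 1.10 on the log2 scale (SE 0.14, limma adjusted p = 0.016), or 2.15-fold. Its probe is printed 10 times on each array, and the SD of those spots on the log2 scale was between 0.05 and 0.12. Without the first control mouse the adjusted p for Acta2 was 0.05 and the call was lost, and with the 4 glomerular arrays fitted alone it was 0.27. On bulk RNA, more cells of a type and more RNA per cell cannot be told apart, here or in the comparisons that follow.

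Cnn1, calponin 1, which binds actin and slows the myosin motor, had levels of -2.71 and -4.52 in the control glomeruli and of -0.87 and -1.16 in the treated ones. The controls differed from each other by more than the treated mice did, yet the groups did not overlap. The difference of 2.60 (SE 0.55, 6.07-fold) had a limma adjusted p of 0.054. Without the first control mouse, which was the higher control, the difference was 3.51 and passed at an adjusted p of 0.028. Without the second control, which was the lower, it was 1.70 (limma adjusted p = 0.076), and it passed in 1 of the 12 fits that left out an array.

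Myh11, the heavy chain that defines smooth muscle myosin, had levels of -1.88 and -2.08 in the control glomeruli and of -0.68 and -0.63 in the treated glomeruli. Within each group the mice lay close together, and the groups were apart. The difference of 1.33 (SE 0.33, 2.51-fold) had a limma adjusted p of 0.078.

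Tagln, transgelin, which cross-links actin, had levels of 2.93 and 3.07 in the controls and of 3.17 and 3.72 in the treated mice. The lower treated mouse was just above the higher control, and the difference of 0.44 (SE 0.17) did not pass the test (limma adjusted p = 0.23). Myl9, the regulatory light chain of smooth muscle and non-muscle myosin, had levels of 6.49 and 5.89 in the controls and 6.21 and 6.38 in the treated mice, with overlapping groups. Cald1, Tpm2 and Smtn overlapped between the groups as well, with differences of -0.06, 0.39 and 0.04. Actg2 and Lmod1 were not well above background in any glomerular array, so no fold is given for them.

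Markers of other cells differed between the same arrays, and their part in the Acta2 result was not tested. All 15 genes of a mural and mesangial list, such as Pdgfrb, Des and Ren1, were well above background on all 4 glomerular arrays. Their summed level, in units of each array's 75th percentile, was 101 and 48.9 in the control mice and 87.3 and 84.6 in the treated mice. In this sum the second control was low and the treated mice lay between the controls. The sum rests on its brightest genes. Itga8 was the brightest on each of these arrays, at 5.14 and 4.02 in the controls and 4.76 and 4.70 in the treated mice. None of the 15 was called, the median difference was 0.37, and 13 of 15 differences were above 0, against 43.0% of all genes. In 4 of 15 both treated mice lay above both controls, against 20.0% of all genes. Called counts here stand beside 2.60% of all genes called in either direction and 1.75% called higher. The summed level of 10 podocyte markers was 494 and 659 in the controls and 323 and 451 in the treated mice, lower in both treated mice than in both controls, and 1 of the 10, Synpo, was called lower. Tubule markers summed to 58.0 and 59.9 in the controls and to 141 and 87.3 in the treated mice, with 2 called higher, Slc12a1 and Slc22a6. Red cell markers summed to 84.5 and 38.0 in the controls and to 0.760 and 7.27 in the treated mice, with 3 called lower. Endothelial markers summed to 247 and 209 in the controls and to 180 and 172 in the treated mice. In the same order, immune markers summed to 3.97 and 2.79 against 1.35 and 2.00. Parietal epithelial markers summed to 28.4 and 31.3 against 23.4 and 25.1, and fibroblast markers to 81.5 and 105 against 110 and 112. Striated muscle markers overlapped, at 3.88 and 1.42 against 2.76 and 3.11. No endothelial, immune, parietal, fibroblast or striated muscle marker was called.

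In the cultures, 1 contractile gene rose with tamoxifen, Actg2, which passed the test at day 7. At day 4 no member was called with limma, against 0.210% of all genes, although 5 of 10 had an unadjusted p under 0.05, against 10.9% of all genes. At day 7 the call of Actg2 stood against 0.972% of all genes called in either direction and 0.453% called higher, and 3 of 10 members had an unadjusted p under 0.05, against 12.1% of all genes. All 10 differences were above 0 at both times, as were 53.2% of all genes at day 4 and 50.2% at day 7. The members' median difference was 0.51 at day 4 and 0.40 at day 7, against 0.02 and 0.00 over all genes. Without the second mock culture of each time the median was 0.33 at day 4, with 9 of 10 above 0, and 0.19 at day 7, with 8 of 10. With normexp background correction the day-4 median was 0.22, with 7 of 10 above 0, and the median of all genes was then 0.19.

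Actg2, the gamma actin of gut and other visceral smooth muscle, had levels of 1.47 and 1.22 in the day-4 mock cultures and of 2.57 and 3.14 in the day-4 treated cultures. At day 7 it had levels of 1.53 and 1.16 in the mock cultures and of 2.95 and 3.01 in the treated ones. At both times the treated cultures lay more than 1 log2 unit above the mock cultures, and the mock cultures of the 2 times overlapped. The difference was 1.51 at day 4 (SE 0.25, limma adjusted p = 0.065). At day 7 Actg2 rose by 1.63 (SE 0.25, limma adjusted p = 0.032), or 3.10-fold. That call was lost with normexp background correction (limma adjusted p = 0.07), when the 8 culture arrays were fitted alone (limma adjusted p = 0.066) and without either control glomerular array (0.051 each) or either day-4 mock culture (0.053 each). It was lost too without the second day-7 mock culture (0.20), or without the first (0.16) or second (0.14) treated culture. Over all 12 fits that left out an array the difference lay between 1.45 and 1.82.

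Acta2, the other actin, had levels of 7.82 and 7.64 in the day-4 mock cultures and of 8.12 and 8.22 in the day-4 treated cultures. Its levels at day 7 were 7.85 and 7.58 with mock treatment and 8.02 and 8.00 with tamoxifen. Treated cultures were above mock cultures at both times, by 0.44 at day 4 (SE 0.14, limma adjusted p = 0.28) and by 0.30 at day 7 (SE 0.14, limma adjusted p = 0.44).

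Cnn1 had levels of 5.59 and 5.10 in the day-4 mock cultures and of 6.54 and 6.79 in the day-4 treated ones. At day 7 its levels were 5.79 and 4.88 with mock treatment and 6.87 and 6.49 with tamoxifen. The groups did not overlap at either time, and the differences of 1.32 and 1.35 (SE 0.55 for both) did not pass the test (limma adjusted p = 0.43 and 0.38). That SE pools all 6 groups, and the SD of Cnn1 was 1.28 in control glomeruli and 0.17 to 0.65 in the culture groups. No alternative called either difference, the culture arrays fitted alone included. Myh11 had levels of -2.15 and -2.89 in the day-4 mock cultures and of -1.68 and -1.50 in the treated ones. At day 7 it had levels of -2.58 and -3.55 with mock treatment and -1.90 and -1.87 with tamoxifen, and its differences were 0.93 (limma adjusted p = 0.34) and 1.18 (adjusted p = 0.17). Without the first day-7 mock culture the Myh11 difference at day 7 was 1.67 and passed (limma adjusted p = 0.045), and without the second it was 0.70 (0.67). In both genes the second mock culture was the lowest array at each time.

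Smtn, smoothelin, a marker of contractile rather than synthetic smooth muscle, had levels of 4.53 and 4.11 in the day-4 mock cultures and of 4.79 and 4.86 in the treated ones, a difference of 0.51 (limma adjusted p = 0.38). At day 7 the levels were 4.58 and 4.07 against 4.68 and 4.65, a difference of 0.34 (limma adjusted p = 0.56). A second Smtn probe gave 0.30 and 0.26. Tpm2, the beta tropomyosin, had levels of 4.76 and 4.33 against 5.13 and 4.97 at day 4 and of 4.90 and 4.42 against 5.32 and 4.91 at day 7, with treated above mock on each. A second Tpm2 probe gave differences of -0.25 and -0.04 in place of 0.51 and 0.46, so the direction for Tpm2 in culture rested on the probe used.

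The remaining members did not pass the test in culture. Tagln lay between 7.76 and 8.01 on all 8 culture arrays, with differences of 0.18 at day 4 and 0.02 at day 7. Myl9 lay between 6.61 and 7.45 and Cald1 between 3.75 and 4.08, and their differences were at most 0.27. Lmod1, leiomodin 1, which starts new actin filaments in smooth muscle, had day-4 levels of -4.63 and -4.30 with mock treatment and -4.00 and -3.18 with tamoxifen, a difference of 0.87 (limma adjusted p = 0.51). Its day-7 levels were -4.11 and -3.78 against -3.81 and -2.95, and the groups overlapped. Both treated cultures were above both mock cultures for 9 of 10 members at day 4, all but Myl9, and for 6 of 10 at day 7, namely Acta2, Actg2, Cnn1, Myh11, Tpm2 and Smtn. Over all genes these shares were 29.0% and 22.1%.

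**Figure D2:**
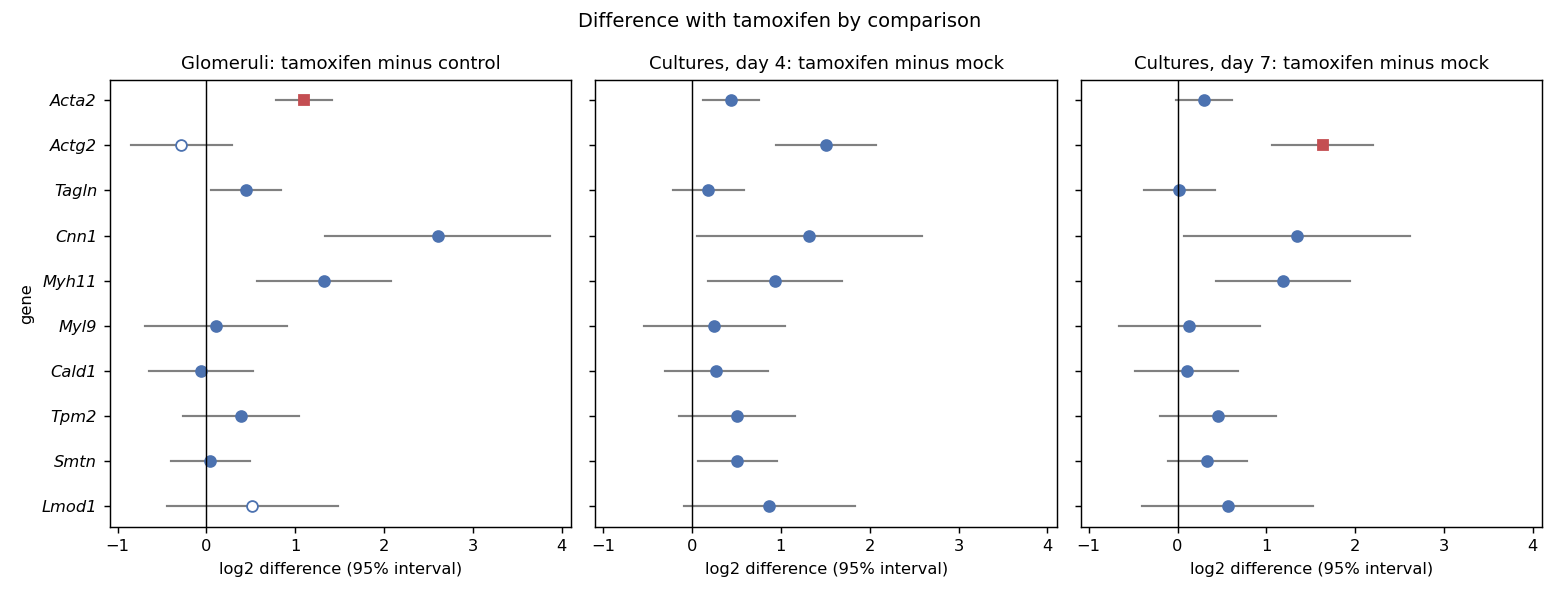
Log2 difference of tamoxifen-treated minus untreated arrays for the 10 genes in glomeruli, day-4 cultures and day-7 cultures, 2 arrays against 2 in each panel. Points are limma estimates and bars their 95% intervals, not adjusted for the number of genes. Red squares passed the test, blue circles did not, and open circles were not well above background in both groups. Acta2 in glomeruli (1.10) and Actg2 at day 7 (1.63) are the values that passed the test.

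The response in glomeruli was tested against the mean response of the cultures at the 2 times. This contrast called 1 member, Actg2, against 1.09% of all genes, and the difference between the responses was -1.86 (SE 0.30, limma adjusted p = 0.041). Actg2 was not well above background on any glomerular array, so its glomerular value is not a measured response, and the call was kept in 2 of the 12 fits that left out an array. For Acta2 the glomerular response was larger by 0.73 (SE 0.17, limma adjusted p = 0.082), which did not pass the test, and for the other members no difference was called either. The culture response at day 7 was not distinguishable from that at day 4, with 0 members called by limma and 0 at an unadjusted p under 0.05. Over all genes 0% were called and 0.893% had an unadjusted p under 0.05. The differences between the 2 responses lay between -0.30 and 0.25.

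Time in culture alone gave no called member. Between mock cultures at day 7 and day 4, 0 of 10 members were called with limma against 0.0328% of all genes called, and 0 had an unadjusted p under 0.05, against 6.49% of all genes. The differences ranged from -0.55 for Myh11 to 0.52 for Lmod1, and 7 of 10 were above 0, against 52.6% of all genes. Both day-7 mock cultures were above both day-4 mock cultures for Tagln and Lmod1, against 18.6% of all genes.

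Most contractile genes differed between cultured podocytes and glomeruli. Of the 8 members well above background in both, 7 were higher in the 4 mock cultures than in control glomeruli and 1, Myh11, was lower, with limma adjusted p-values from 1.8e-08 to 0.045. Actg2 and Lmod1 were called higher too, but they passed the filter on dim probes through the cultures alone. In this comparison 63.7% of all genes were called, with 37.8% of all genes higher and 25.9% lower. The median difference of the 8 was 2.78, against 0.18 over all genes. With Actg2 and Lmod1 at their bounds below, the median of all 10 was also 2.78. With their fitted values, which rest on glomerular signals not well above background, it was 2.94.

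Cnn1 rose by 8.96 on the log2 scale (SE 0.48), or 498-fold. Its control mice lay apart, and the difference was 9.86 without the first control and 8.05 without the second. Even the lowest culture array was more than 5 units above the highest glomerular one. Actg2 was at least 159-fold higher in culture, a bound set by the lowest signal well above background on the control arrays. Acta2 rose by 6.16 (SE 0.12), or 71.3-fold, and Tagln by 4.85 (SE 0.15), or 28.9-fold. In each of these 4 genes every culture array was above every glomerular array.

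Tpm2 rose by 3.25 (SE 0.24, 9.49-fold) and Cald1, the actin- and myosin-binding caldesmon, by 2.31 (SE 0.22, 4.95-fold). Lmod1 was at least 3.39-fold higher in culture by the same kind of bound. Both bounds hold for the scaling used: with normexp background correction, which adds an offset to every signal, the fitted difference was 4.56 for Actg2 and 0.61 for Lmod1, whose call was lost (limma adjusted p = 0.053). Smtn rose by 0.87 (SE 0.17, 1.83-fold, limma adjusted p = 0.0023) with the probe used, and its second probe gave 0.36, with an unadjusted limma p of 0.065. Myl9 rose by 0.80 (SE 0.30, 1.74-fold, limma adjusted p = 0.045). Without the second control mouse the Myl9 difference was 0.50 (limma adjusted p = 0.29), and with quantile normalization it was 0.49 (adjusted p = 0.14), and it was kept in 3 of the 12 fits that left out an array.

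Myh11 went the other way. It was 1.76-fold lower in mock cultures, a difference of -0.82 (SE 0.28, limma adjusted p = 0.034), while the treated glomeruli held its highest levels on any array. Scaling each array on its median moved the median of all genes in this comparison from 0.18 to 0.41, and the Myh11 difference was then -0.58 (limma adjusted p = 0.073), with quantile normalization -0.62 (adjusted p = 0.06). The call was lost without either control mouse (limma adjusted p = 0.16 and 0.081), without the second mock culture of day 4 (0.08) or day 7 (0.054), and without either day-7 treated culture (0.05).

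**Figure D3:**
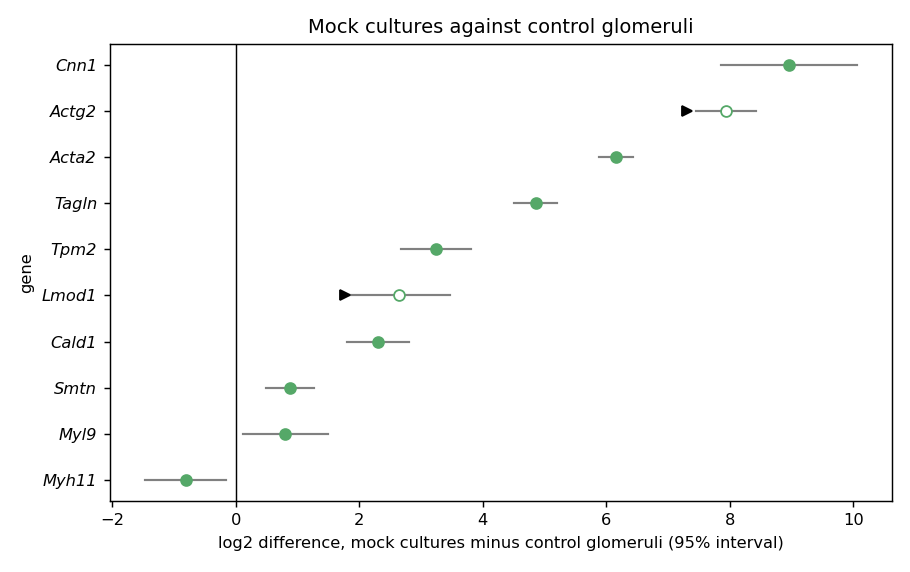
Log2 difference of the 4 mock cultures minus the 2 control glomerular samples for each contractile gene, with 95% intervals from limma. Open circles were not well above background in glomeruli, and black triangles mark the bounds given for them. Cnn1 (8.96) had the largest difference of the genes well above background in both, and Myh11 (-0.82) was the 1 gene lower in culture.

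The order of the 6 groups had 2 forms. For 9 members all culture groups lay above both glomerular groups. For Acta2, Tagln, Myl9, Cald1 and Smtn the day-4 treated cultures were highest, and for Actg2, Cnn1, Tpm2 and Lmod1 the day-7 treated cultures were, but the day-4 and day-7 treated arrays overlapped in all but Acta2, Cald1 and Smtn. For Myh11 the order ran from treated glomeruli at a mean of -0.65, through day-4 treated cultures at -1.59, day-7 treated cultures at -1.88, control glomeruli at -1.98 and day-4 mock cultures at -2.52, to day-7 mock cultures at -3.07. In that order the day-7 treated cultures overlapped the control glomeruli, and the mock cultures of the 2 times overlapped each other.

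The cultures were checked against the markers of the cells they were labelled as. All 10 podocyte markers were well above background in culture, but 9 of 10 were lower than in control glomeruli, among them the slit diaphragm gene Nphs1 by -4.33 and Wt1, the podocyte transcription factor, by -0.67. Summed podocyte marker levels were 68.1 to 87.4 on the culture arrays. Mural and mesangial markers summed to 21.6 to 29.9, with 12 of 15 called lower than in glomeruli, among them Gata3 by -3.55, and 0 higher. Of these 15, Kcnj8 was not well above background on any culture array, so not all 15 were measured in both. Endothelial markers summed to 5.71 to 8.89 and tubule markers to 0.618 to 0.919. The 8 tested fibroblast markers summed to 71.1 to 189 in culture and to 81.5 and 105 in control glomeruli. These sums rest on different genes. Pi16 was the brightest of the 8 in control glomeruli (5.87 and 6.09) and lay between -3.46 and -1.52 in mock cultures. In mock cultures Col1a2 was the brightest (5.97 to 6.82). Col1a1 lay at -3.17 and -3.40 in control glomeruli and between 2.84 and 5.34 in mock cultures. Of these 8, 3 were called higher in mock cultures and 3 lower. Immune markers summed to 1.64 to 7.78 in culture, with 2 called higher and 2 lower. These counts stand beside 37.8% of all genes called higher and 25.9% called lower in this comparison. The part of the marker shifts in the contractile gene differences was not tested.

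Within the cultures, some marker sums moved with tamoxifen. The summed level of 6 parietal epithelial markers was 41.5 and 33.9 in the day-4 mock cultures and 59.0 and 55 in the treated ones, and at day 7 it was 43.5 and 27.8 against 59.7 and 51.6. The sum was higher in treated than in mock cultures at both times, while 1 of the 6, Cldn1, was called lower at day 7. A sum is carried by its brightest genes, here Ncam1, which had the highest level of the 6 on every culture array. At day 4 Ncam1 had levels of 4.64 and 4.26 with mock treatment and 5.31 and 5.24 with tamoxifen. Krt8 was not well above background on any culture array, nor Krt18 on any mock culture array. Podocyte markers summed to 87.4 and 79.8 in the day-4 mock cultures and 74.5 and 73.2 in the treated ones. At day 7 they summed to 83.4 and 85.8 against 68.1 and 80.2, so the sums were lower with tamoxifen at both times. Single podocyte genes did not all follow: of 10, 4 had differences above 0 at day 4 and 3 at day 7, with Wt1 among them at both times. At day 7 Clic5 of the podocyte list and Rgs5 of the mural list were called lower, and at day 4 no gene of these 3 lists was. The part of these markers in the Actg2 result was not tested.

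Related genes of the contractile pathway were compared in the same way. Their counts in culture against glomeruli stand beside the 37.8% of all genes higher and 25.9% lower there. Those counts include genes that passed the filter on dim probes through 1 sample type alone, such as Gata6, Prrx1, Mef2c and Ptgir. They are therefore not counts of genes measured in both. Of 20 regulators of smooth muscle transcription, 18 were tested. With tamoxifen in glomeruli 1 of the 18 was called higher, Myocd, which encodes myocardin, and the median difference was -0.15. Myocd had levels of -4.53 and -4.52 in the control glomeruli and -3.84 and -3.73 in the treated ones, and rose by 0.74 (limma adjusted p = 0.05, just under the threshold), a call that was lost in every fit that left out 1 array. Its differences in culture were 0.79 at day 4 (limma adjusted p = 0.096) and 0.64 at day 7 (adjusted p = 0.12). 

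Against control glomeruli, mock cultures had 10 of the 18 regulators higher and 4 lower. Klf5 rose by 4.43 and Myocd by 3.50. Gata6, a factor of vascular smooth muscle, and Prrx1 were not well above background on either control array, and were at least 10.6-fold and at least 19.5-fold higher in culture. Mef2c was at least 15.2-fold lower, since it was not well above background on any mock culture array. Srf, serum response factor itself, differed by -0.11 and was not called.

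Among 17 genes of non-muscle and other myosins, the light chain kinase and its phosphatase, 0 were called with limma in glomeruli or at day 4. At day 7 Myl12b, a regulatory light chain of non-muscle myosin, fell by 1.04 (limma adjusted p = 0.034), a call that was kept in 1 of the 12 fits that left out an array. In culture against glomeruli 10 of the 17 were higher, such as Myh10 by 1.79 and Rock2 by 1.61, and 4 lower, with Mylk, the light chain kinase, at -2.33. Of 14 tested genes of other actins, tropomyosins and thin-filament proteins, 0 were called with tamoxifen in glomeruli, at day 4 or at day 7. In culture against glomeruli 7 were higher, among them Acta1 by 5.16 and Tpm1 by 2.22, and 4 were lower.

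Dense bodies and adhesion plaques anchor the contractile filaments, and of 21 genes of these structures 1 was called with tamoxifen in glomeruli. This was Ldb3, a Z-disc and dense body scaffold, which rose by 1.35 (limma adjusted p = 0.023). The mean of its probes gave 0.38 (limma adjusted p = 0.30), and the call was lost without the first treated mouse (0.10) or either day-4 treated culture (0.053). No gene of this list was called in culture with tamoxifen, where the intermediate filament gene Synm differed by -1.99 at day 4 and -1.60 at day 7. In culture against glomeruli 13 of the 21 were higher, with Actn1 by 4.08 and Pdlim7 by 3.46, and 4 were lower.

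Of 22 tested channels, receptors and signalling genes of smooth muscle, 13 were lower in mock cultures than in control glomeruli, where 25.9% of all genes were. Among them the endothelin receptor Ednrb differed by -4.71, and the prostacyclin receptor Ptgir, not well above background on any mock culture array, was at least 26.2-fold lower. In 5 the level was higher, with Kcnmb1, a subunit of the BK potassium channel, at 3.22. With tamoxifen Pde5a, which breaks down cyclic GMP, fell by 1.12 in glomeruli (limma adjusted p = 0.022, and 0.07 without the first control mouse). Rgs5, a G-protein regulator typical of pericytes, fell by 2.82 at day 7 (limma adjusted p = 0.014), a gene that the mural list holds too, and its adjusted p was 0.081 without the first treated culture and 0.077 without the second. It differed by -1.88 at day 4 (limma adjusted p = 0.065).

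Genes induced in activated fibroblasts were compared because Acta2 and Tagln are often read together with them. With tamoxifen 0 of the 18 were called with limma in glomeruli or in cultures of either time, and their median differences were 0.09, 0.27 and 0.28. Postn and Col1a1 had the largest differences in glomeruli, at 2.11 and 1.82 (limma adjusted p = 0.22 and 0.26). In mock cultures 15 of the 18 were higher than in control glomeruli and 3 lower, with a median of 3.98, and Fn1, fibronectin, rose by 6.84. Lox, the collagen cross-linking enzyme, was not well above background on either control array and at least 623-fold higher in culture.

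**Figure D4:**
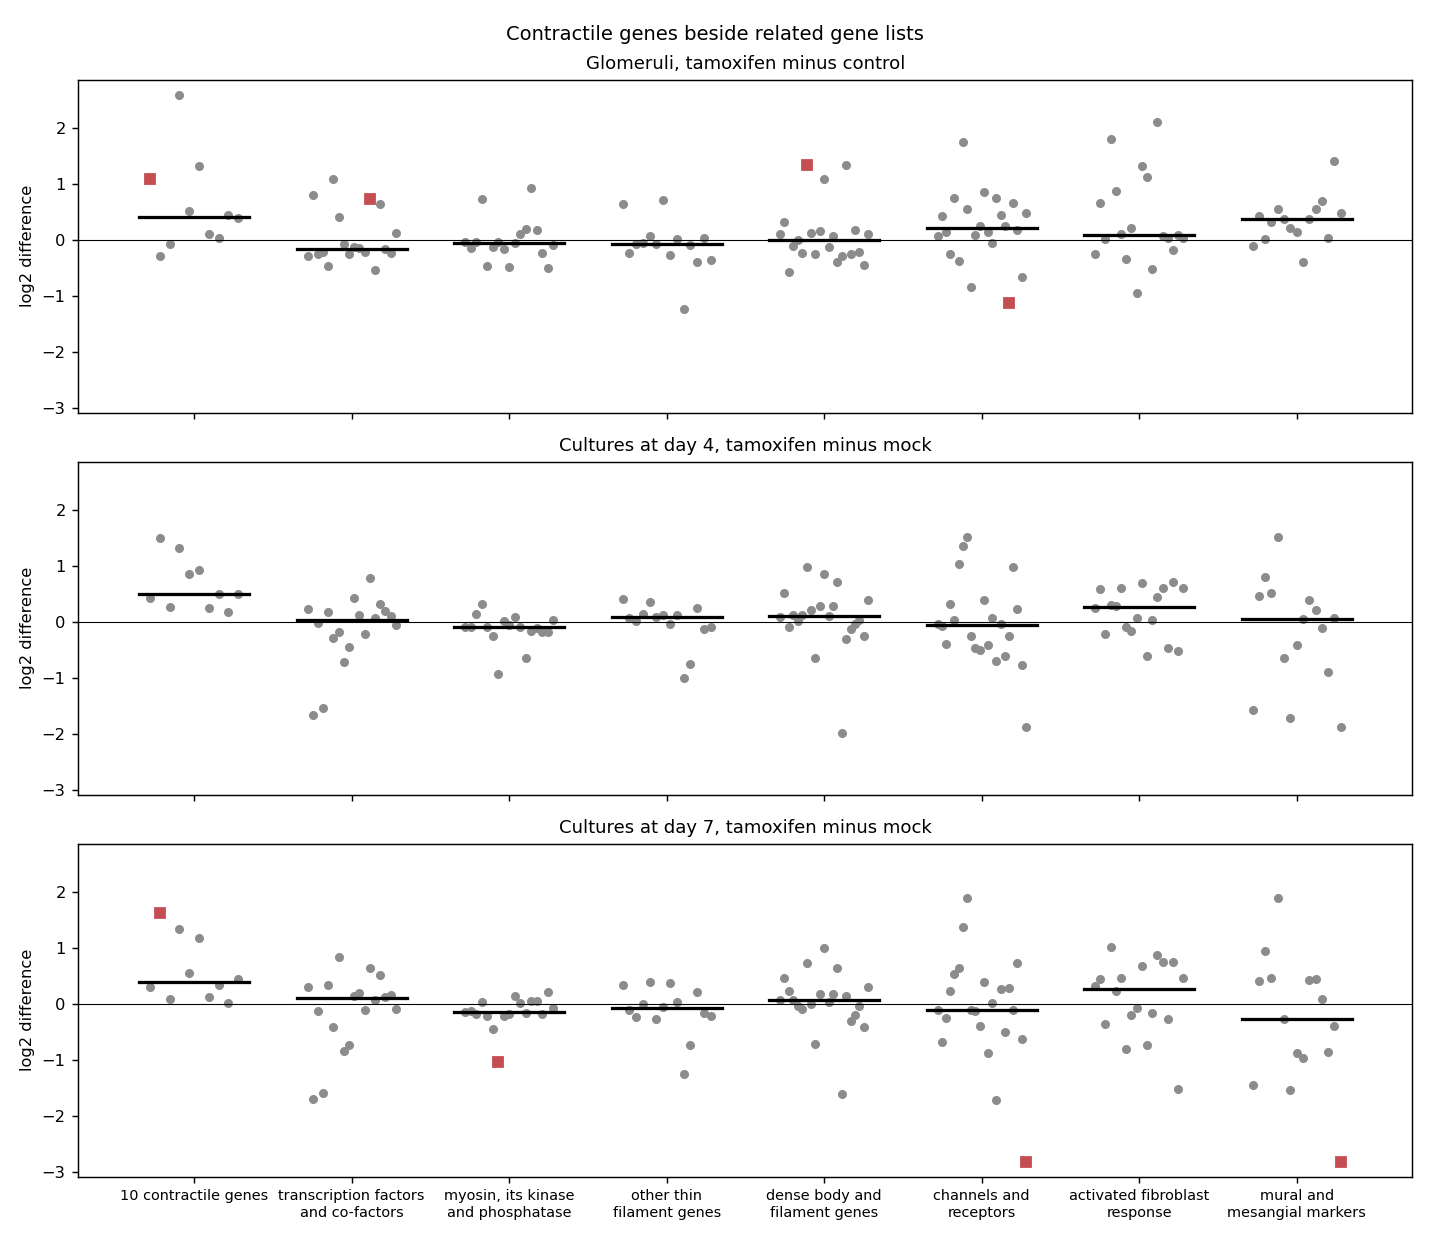
Log2 differences with tamoxifen of the 10 contractile genes beside the genes of 7 related lists, in glomeruli, day-4 cultures and day-7 cultures. Each point is 1 tested gene, red squares passed the test, and the bar of each list is its median, which for the contractile genes was 0.42, 0.51 and 0.40. The 0.42 in glomeruli takes in Actg2 and Lmod1, which were not well above background there.

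The members varied together to different degrees. Each member's levels were correlated over the 12 arrays with the mean of the other 9, after the mean of the glomerular and of the culture arrays had been taken out. Pearson's r was 0.88 for Tpm2, 0.86 for Myh11, 0.85 for Cnn1, 0.78 for Smtn and 0.77 for Acta2. It was 0.67 for Actg2, 0.58 for Myl9, 0.57 for Tagln, 0.47 for Lmod1 and 0.38 for Cald1. The arrays share slides and treatments, so these values describe these 12 arrays. Actg2 and Lmod1 were not well above background on any glomerular array, so their variation there is not measured. That variation enters their own r, the means set against the other members and the mean profile used below.

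Genes outside the members were correlated with the mean profile of all members, whereas each member was left out of the mean it was set against. The genes named here were also picked as the highest of all those tested outside the members. Their r is therefore not to be compared with that of a member. The genes most like the mean profile were Socs1 and Parm1 (r = 0.96 each), Lbh and Bcat1 (r = 0.95 each) and Arl15 (r = 0.94). Of these, Bcat1, which starts the breakdown of branched-chain amino acids, had the widest differences with tamoxifen, of 2.76 at day 4 and 2.85 at day 7, and neither passed the test (limma adjusted p = 0.096 and 0.059). In glomeruli it was not well above background on either control array and at least 2.23-fold higher in the treated mice (limma adjusted p = 0.11). Socs1, an inhibitor of cytokine signalling, differed by 0.62, 0.96 and 1.09, and was not called in any of the 3 comparisons.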

How the data were processed

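Total RNA was hybridised to one-colour (Cy3) Agilent arrays whose design names the mm9 build, per the file headers. The deposited files hold spot intensity that the authors read with Agilent Feature Extraction 11.5.1.1, per the submitters' processing notes, with background subtracted in the processed signal. In the value table that the authors deposited the values are on a log2 scale and matched the values used here up to a constant of 0.094 to 0.12 per array (100% of the probes within 0.1 of it), and how it was made is not given in the sources used here.

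Processed signals were scaled here to each array's 75th percentile and taken to log2. Control spots and outlier spots (83 to 134 per array) were left out, no spot was saturated, and spots of 1 probe were averaged. A probe was kept (26414 were) if 2 or more of the 12 arrays flagged it as well above background, and the brightest probe stood for each gene. For 15 genes, none of them a member, a value was missing on an array. Differences were fitted with limma 3.58.1 in R 4.3.3 as 6 group means with 6 residual degrees of freedom, and p-values were adjusted with Benjamini-Hochberg. The fit was tested on simulated data. The number of arrays limits the precision. Replicate cultures of 1 group may be technical replicates, and p-values then measure that spread alone.

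Text names all 10 members, the called genes of each list (up to 4 a comparison by unadjusted p, or 2 by size where none was called) and the 5 genes most like the members, and any other listed gene was chosen after its values were seen. The members and lists were chosen with earlier results of these data known. Alternatives changed the background correction, scaling, filter, probe choice, variance model, arrays fitted and replicate block, or took the authors' table. A bound ("at least") sets the bright group's mean against the lowest signal well above background on each dim array, or the dim probe's own if higher.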

Additional observations from a re-analysis of the deposited data

Results flagged for a closer look

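For 3 genes of the related lists, Csrp2, Pde5a and Rgs5, the response to tamoxifen differed between glomeruli and cultures in limma's test of that difference itself, the glomerular response minus the mean of the day-4 and day-7 responses. Over all genes 1.09% were called in this test. Actg2 was called too, at -1.86 (limma adjusted p = 0.041), but it was not well above background on any glomerular array, so its response there was not measured. Csrp2, a LIM protein of smooth muscle, differed by 2.48 (limma adjusted p = 0.044), with responses of 0.81 in glomeruli, -1.66 at day 4 and -1.69 at day 7, none of them called. Pde5a differed by -1.14 (limma adjusted p = 0.044), with a call in glomeruli at -1.12. Rgs5 differed by 2.83 (limma adjusted p = 0.028), with a call in day-7 cultures at -2.82. Of the 12 fits that each left out 1 array, the calls were kept in 2 for Actg2, 1 for Csrp2, 2 for Pde5a and 4 for Rgs5. Glomeruli and cultures were on separate slides, so slide and sample type cannot be told apart here.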

How the results depend on the processing

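The number of contractile genes called with tamoxifen was small under every alternative and moved with several. In glomeruli it was 1, and 0 with normexp background correction or the glomerular arrays alone, 2 with median scaling or the trend and robust variance model, and 3 with quantile normalization. The added genes were Cnn1 and, with quantile normalization, Myh11. At day 4 it was 0, and 3 with normexp (Actg2, Myh11 and Lmod1), a setting under which 5005 genes were called in all and the median of all genes was 0.19, and 1 (Actg2) with quantile normalization or the trend and robust model. At day 7 it was 1, and 0 with normexp or the culture arrays alone, and leaving out 1 array gave 0 to 2. For the glomerular against the culture response it was 1, with 0 under normexp or no filter on dim probes and 2 under quantile normalization, and leaving out 1 array gave 0 to 1. Against control glomeruli, 8 to 10 members were called in mock cultures under all alternatives. The replicate block added Cnn1 in glomeruli (2 members called, limma adjusted p = 0.031) and changed no other member's call, while calls over all genes went from 396 to 943 in glomeruli, from 32 to 236 at day 4 and from 148 to 641 at day 7. Same-numbered arrays correlated at 0.21 in their deviations between the glomerular groups and at 0.40 to 0.55 among the cultures, but with 2 numbers per group and no shared origin in the labels a pairing was not established. Signs turned only for small differences that had not passed. Under normexp these were Actg2 in glomeruli (0.16), Smtn in glomeruli (-0.0022), and Tagln (-0.11), Myl9 (-0.027) and Cald1 (-0.064) at day 4. Under quantile normalization they were Actg2 in glomeruli (0.00056) and Tagln at day 7 (-0.066), and with the mean of its probes Smtn in glomeruli (-0.061). Leaving out 1 array, the glomerular differences ranged from -0.20 to 0.41 for Myl9, -0.51 to 0.39 for Cald1 and -0.041 to 0.12 for Smtn. Likewise Myl9 ranged from -0.058 to 0.56 at day 4 and from -0.29 to 0.55 at day 7, and Tagln from -0.060 to 0.10 at day 7. Over the values of the 10 members and of Csrp2, Ldb3, Myl12b, Myocd, Pde5a and Rgs5, 932 kept direction and call, 124 lost the call, 13 gained it and 16 turned sign, and for the other genes named no alternative was run. The cause of these shifts was not tested. The slide could not be fitted as a separate block, since each slide holds both arms of a tamoxifen comparison and no other group.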
